A study of Mus musculus with 17 samples.

Results

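The regions described here, called late sites, are MYC ChIP-seq peaks listed in macrophages after 4 h of IL4 that overlapped, by even 1 bp, neither a MYC peak listed after 2 h of IL4 nor one listed in untreated cells. The members were selected on listed position alone, from the autosomes (chromosomes 1 to 19) and both sex chromosomes, after peaks that also appeared in the input library had been dropped. The rule selected 1178 of the 9645 peaks of the IL4 4 h list (12.2%), out of 144384 peaks in the 16 ChIP lists of the series. The other 8467 peaks of the same list and the 4877 peaks listed only at 2 h of IL4 (36.9% of 13211) served for comparison. Because members were chosen by the presence and absence of called peaks in 3 MYC lists (untreated, IL4 2 h and IL4 4 h), the peak values of these lists are given as a description and no test was made on them.

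The study profiled chromatin binding of STAT6, IRF1, JUNB, CEBPB and MYC in primary bone marrow-derived macrophages of wild-type C57BL/6 mice, grown in L929-conditioned medium and used on day 7 of differentiation. Cells were left untreated, or received IL4 (10 ng/ml), IFNg (100 ng/ml) or both. MYC was profiled in untreated cells, with IL4 at 2 h and 4 h, and with IFNg+IL4 at 2 h and 4 h. STAT6 was profiled at 2 h with IL4 and IFNg+IL4, and IRF1, JUNB and CEBPB were profiled untreated and at 4 h with IFNg and IFNg+IL4. Each group was 1 library, so no difference between groups has a replicate check and no p-value is given. Shares carry exact Clopper-Pearson 95% intervals, which cover counting error only and treat neighbouring peaks of the same gene as independent.

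MYC is a basic helix-loop-helix leucine zipper transcription factor that binds DNA as a heterodimer with MAX. Its preferred site is the E-box CACGTG, with CACGCG among its weaker variants, and it is found mostly at active promoters rich in CpG. In growing cells its best known targets encode ribosome biogenesis factors and enzymes of metabolic growth. In macrophages IL4, acting through STAT6, is known to induce Myc itself, and IFNg is known to oppose parts of the IL4 response.

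Promoter sequences at late sites are shown first, because they bear on whether a late summit lay over an E-box. The windows come from RefSeq (GRCm38.p6), run 5′ to 3′ on the gene's strand from 250 bases before to 50 bases after an annotated start, and contain the summit of a late peak. Capitals mark CACGTG and CACGCG, both strands searched, so CACGCG can also appear as CGCGTG. The first pair, Rgp1 (chr4:43578485-43578784, plus strand) and Sec22a (chr16:35363869-35364168, minus strand), are the windows with the strongest late peaks, and neither holds a motif. Rgp1 and Sec22a encode proteins of membrane trafficking. The next 4 hold a CACGTG.
Rgp1: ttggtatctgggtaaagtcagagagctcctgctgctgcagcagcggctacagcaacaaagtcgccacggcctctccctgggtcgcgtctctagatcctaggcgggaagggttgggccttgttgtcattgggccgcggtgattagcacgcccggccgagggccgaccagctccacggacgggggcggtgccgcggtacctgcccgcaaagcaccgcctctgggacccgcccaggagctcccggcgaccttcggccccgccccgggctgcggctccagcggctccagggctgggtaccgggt
Sec22a: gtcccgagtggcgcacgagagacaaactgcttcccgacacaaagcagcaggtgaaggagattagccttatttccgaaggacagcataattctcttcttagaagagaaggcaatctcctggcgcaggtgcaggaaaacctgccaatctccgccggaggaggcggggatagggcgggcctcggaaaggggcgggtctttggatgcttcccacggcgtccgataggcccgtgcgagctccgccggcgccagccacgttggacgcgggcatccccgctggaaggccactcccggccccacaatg
Fbxo10: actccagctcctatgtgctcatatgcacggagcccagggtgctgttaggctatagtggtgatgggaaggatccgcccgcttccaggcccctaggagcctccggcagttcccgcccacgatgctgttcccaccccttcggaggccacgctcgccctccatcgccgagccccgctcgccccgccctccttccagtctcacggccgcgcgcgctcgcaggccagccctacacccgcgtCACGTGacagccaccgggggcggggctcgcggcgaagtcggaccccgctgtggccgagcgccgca
Atoh8: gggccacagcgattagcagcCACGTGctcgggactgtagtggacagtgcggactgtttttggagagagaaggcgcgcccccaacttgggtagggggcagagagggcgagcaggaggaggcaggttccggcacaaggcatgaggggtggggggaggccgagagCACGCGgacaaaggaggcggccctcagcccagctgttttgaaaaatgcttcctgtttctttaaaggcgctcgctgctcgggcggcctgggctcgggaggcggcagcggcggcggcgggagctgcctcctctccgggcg
Lats2: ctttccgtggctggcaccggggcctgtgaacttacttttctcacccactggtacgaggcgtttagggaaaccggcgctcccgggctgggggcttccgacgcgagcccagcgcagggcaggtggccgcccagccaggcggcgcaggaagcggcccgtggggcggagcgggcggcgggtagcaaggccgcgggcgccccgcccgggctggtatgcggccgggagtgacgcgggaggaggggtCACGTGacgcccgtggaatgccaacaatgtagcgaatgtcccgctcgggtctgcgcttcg
Fas: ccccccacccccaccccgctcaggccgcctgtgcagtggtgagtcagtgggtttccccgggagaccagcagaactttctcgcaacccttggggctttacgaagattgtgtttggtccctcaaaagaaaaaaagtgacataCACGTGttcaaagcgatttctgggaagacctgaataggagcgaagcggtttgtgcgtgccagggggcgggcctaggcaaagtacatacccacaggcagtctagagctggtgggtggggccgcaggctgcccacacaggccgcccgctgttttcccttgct
Fbxo10 (chr4:45084555-45084854, minus strand), which encodes a subunit of an SCF ubiquitin ligase, has the strongest late peak of any window with CACGTG. Atoh8 (chr6:72235528-72235827, minus strand), encoding a basic helix-loop-helix factor, holds both motifs. Lats2 (chr14:57746074-57746373, minus strand) encodes a kinase of the Hippo pathway, and its peak was also listed with IFNg+IL4 at 2 h. Fas (chr19:34290409-34290708, plus strand) encodes the death receptor and belongs to the IFNg response list used below. The 4 windows with a motif were picked after their values were seen.

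Late sites were mostly weak peaks. The authors' peak caller gave them a median fold enrichment over control of 5.45 and a median −log10 p of 9.18, against 7.16 and 13.9 for the other peaks of the list. The pileup at the summit, the number of reads stacked there, could be recovered from the deposited fold and −log10 p. It had a median of 13.5 reads in late peaks (range 8 to 97) and 19 in the other peaks. When the list was cut into 10 classes of equal size by −log10 p, late peaks made up 32.2% of the weakest class (311 peaks) and 0.934% of the strongest (9 peaks). Median width was 141 bp in late peaks and 249 bp in the others.

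**Figure D1:**
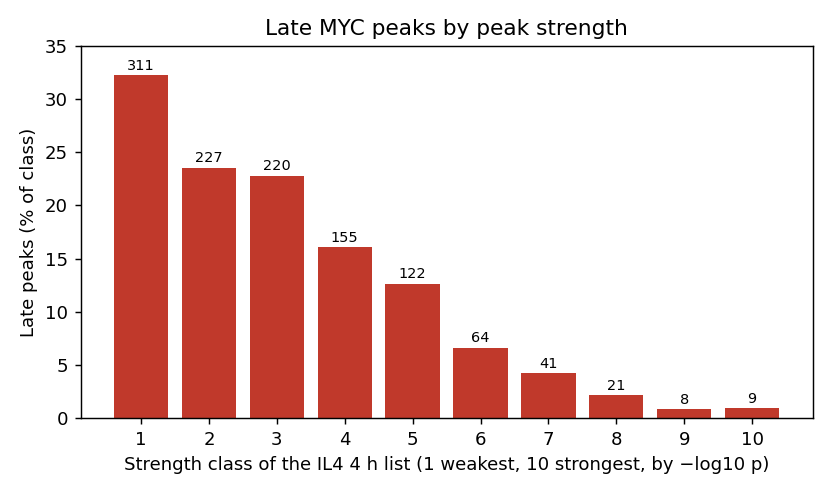
Share of late peaks (vertical axis, % of the class) in 10 equal classes of the IL4 4 h list ordered by −log10 p (horizontal axis), with the number of late peaks above each bar. The share falls from 32.2% in the weakest class to 0.934% in the strongest.

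The IL4 4 h library was deeper than the IL4 2 h library, with relative depths to the input of 0.876 and 0.573 recovered from the peak values. If each late peak's pileup and background were scaled down to the depth of the 2 h library, 1021 of the 1178 (86.7%) would still pass that list's lowest −log10 p of 4.85. The scaling used the IL4 4 h values themselves, with no counting error added. It cannot say why these peaks were absent from the 2 h list. Absence from a list means only that no peak was called there, and weaker binding at 2 h was not measured. At the edge of the rule, the late peak nearest to an earlier one lay 1 bp away, near Rfx3 (−log10 p of 9.75), while the peak at Stmn1 (−log10 p of 7.70) was left out by an overlap of 1 bp. A gap under 100 bp separated 115 late peaks from an earlier peak. The summits of 360 late peaks (30.6%) lay within 1 kb of an earlier peak and those of 818 lay farther away, and the median gap over all late peaks was 9175.5 bp.

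Late sites lay less often at promoters and more often inside genes than the other peaks of the list. A promoter peak had its summit within 1 kb of an annotated start of a protein-coding gene. This held for 471 late peaks (40.0%, interval 37.2 to 42.8%), against 55.7% (54.6 to 56.8%) of the other peaks and 53.8% of the whole list. Inside a protein-coding gene, more than 1 kb from a start, lay 437 late peaks (37.1%, 34.3 to 39.9%), against 26.3% (25.4 to 27.3%) of the others and 27.6% of the whole list. Only 39 late peaks (3.31%) lay 1 to 10 kb upstream of a start, and 231 (19.6%) lay elsewhere, against 14.7% of the other peaks. Weighting the other peaks to the strength classes of the late ones gave 52.9% at promoters and 28.1% inside genes. The gap was uneven over the classes. In class 2, counted from the weakest, 33.0% of late and 32.4% of other peaks lay inside genes. In the strongest class the shares were 88.9% of 9 late peaks and 20.8% of the others. Peaks listed only at 2 h, with 40.8% at promoters and 34.3% inside genes, were distributed much as late peaks were. Late promoter summits had a median position of +1 bp from the start, and 198 of 471 (42.0%) were within 100 bp of it. The 4716 promoter summits of the other peaks had a median of -13 bp, with 47.3% within 100 bp. The starts of 4395 genes were not listed, and 103 late peaks (8.74%) outside promoters lay within 1 kb of either end of such a gene (9.52% of the whole list). On chromosome X lay 36 late peaks (3.06%, 2.15 to 4.21%), against 1.42% (1.18 to 1.69%) of the other peaks, 2.42% of those listed only at 2 h and 1.62% of the whole list.

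**Figure D2:**
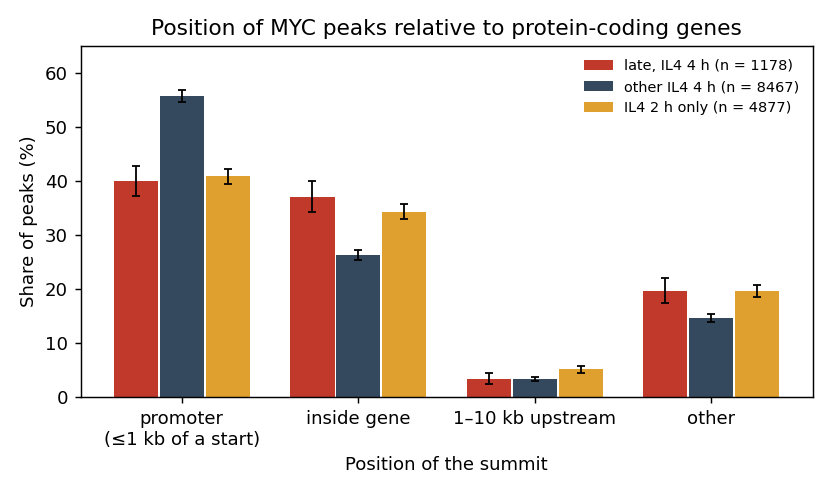
Share of peaks (vertical axis, %) whose summit lies at a promoter, inside a gene, 1 to 10 kb upstream of a start or elsewhere, for late peaks, the other IL4 4 h peaks and peaks listed only at 2 h, with exact 95% intervals. Late peaks stand at 40.0% at promoters and 37.1% inside genes, the other IL4 4 h peaks at 55.7% and 26.3%.

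The strongest late sites lay mostly inside genes. Of the 10 late peaks with the highest −log10 p, 9 lay inside genes and 1 near an annotated start, and together they named 9 genes. Of these genes, Ctsb, Psap and Ctsd are on the list of lysosome and autophagy genes and Fcgr3 is on that of macrophage identity. Whether these gene-body peaks are MYC binding or background signal over gene bodies was not tested. The highest was in Grn, which encodes progranulin, a secreted and lysosomal protein, at chr11:102433963-102434331, with a pileup of 56 reads, a fold of 24.4 and a −log10 p of 70.1. Its summit was 59.2% of the way along the 6.303 kb gene, and the nearest earlier MYC peak was 3701 bp away. Next came a pair in Ctsb, encoding the lysosomal protease cathepsin B, at chr14:63142261-63143094 (66 reads) and chr14:63143536-63143909 (49 reads). Selenop, encoding a secreted selenoprotein, followed with 45 reads at chr15:3279071-3280463. All of these stood above the median of 19 reads in the other IL4 4 h peaks.

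Tmsb4x, which encodes the actin-binding thymosin beta 4, had 34 reads at chrX:167207169-167207571, 96.3% of the way along the gene. In Itm2b, encoding an integral membrane protein, the summit reached 40 reads at chr14:73366284-73366540. The Apoe peak (apolipoprotein E, chr7:19697467-19697693, 41 reads) was the only promoter peak of the 10. It lay 0.832 kb past an internal annotated start, 73.9% of the way along the 5.067 kb gene span and 1.322 kb from its 3′ end. Psap, the precursor of the saposins that help degrade sphingolipids, had 32 reads at chr10:60301666-60302234. Ctsd, encoding the aspartic protease cathepsin D, had 35 reads at chr7:142376987-142377206. Fcgr3, an IgG Fc receptor and a macrophage marker, had 34 reads at chr1:171051604-171051839, with no earlier MYC peak within 53000 bp.

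Several of these genes carried runs of late peaks rather than 1. Ctsb and Psap held 8 late summits each, Ctsd 6, Ctss (cathepsin S) 5, Gpnmb (a lysosomal membrane glycoprotein) and Itm2b 4 each, and Apoe and Selenop 3 each. In Ctsb the 8 pileups ran from 18 to 66 reads, and the single IL4 2 h peak in the gene had 13 reads, a value not scaled for the lower depth of that library. In Psap they ran from 15 to 32 reads, all between 68.2% and 99.1% of the gene's length, while the 2 IL4 2 h summits lay nearer the 5′ end. In Itm2b all 4 lay beyond 82.0% of the gene. In Ctsd the 6 summits spread from 0.65% to 96.8%, and neither the 2 h nor the untreated list had a summit in the gene, although an earlier MYC peak lay 82 bp from its late promoter peak. Gpnmb, Selenop, Grn, Lyz2, Fcgr3, B2m and C1qb likewise had no earlier MYC summit inside their spans, with the nearest earlier peak 705 bp from the late promoter peak of Gpnmb. Chd9, Notch1 and Vps13d, which are longer genes (226.215, 45.921 and 323.993 kb), also held 3 late summits each, of at most 12, 16 and 19 reads. Over all protein-coding genes, 716 (3.27%) held a late summit and 43 (0.196%) held 2 or more. Joining late summits less than 5 kb apart gave 8 runs of 3 or more, at Psap, Ctsb, Ctsd, Itm2b, Ctss, Lyz2, Selenop and Apoe.

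**Figure D3:**
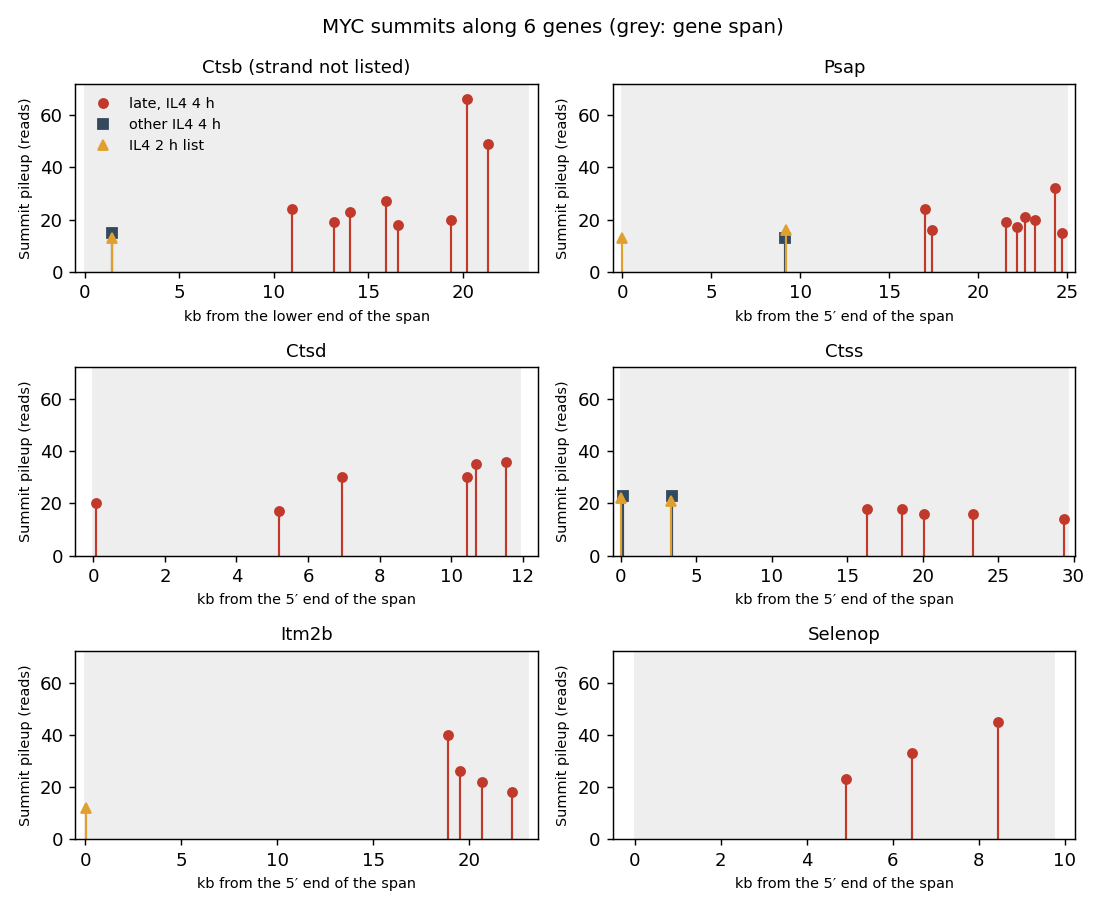
Summit pileup in reads (vertical axis) against distance in kb from the 5′ end of the gene span, or from its lower end for Ctsb, whose strand is not listed (horizontal axis), for late peaks, other IL4 4 h peaks and IL4 2 h peaks in 6 genes. Late summits crowd the later part of Psap, Ctss and Itm2b, and the tallest, 66 reads, is in Ctsb. The 2 libraries differ in depth (0.573 at 2 h, 0.876 at 4 h), and pileups are not scaled.

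Inside genes, late summits lay nearer the 3′ end than the other IL4 4 h summits. For the 292 late summits inside genes of listed strand the median position was 51.8% of the gene's length, against 41.0% for 1319 other IL4 4 h summits and 42.5% for 1115 summits listed only at 2 h. In the final 10% of the gene's length lay 39 late summits (13.4%, 9.67 to 17.8%), against 7.20% (5.87 to 8.73%) of the others and 8.61% of those listed only at 2 h. Past the midpoint of the gene lay 149 of the 292 late summits (51.0%, 45.1 to 56.9%), against 40.7% of the others. With 1 late summit per gene, 118 of 246 did (48.0%, 41.6 to 54.4%). The difference was concentrated in the strong late peaks. Among late summits with a −log10 p of at least 15, a limit chosen after the values were seen, 37 of 42 (88.1%, 74.4 to 96.0%) lay past the midpoint of the gene, against 40.2% of 515 other summits of that strength. Counting each gene once left 21 of 26 (80.8%, 60.6 to 93.4%). Below that limit, 112 of 250 late summits (44.8%, 38.5 to 51.2%) lay past the midpoint, against 41.0% (37.6 to 44.5%) of the other summits.

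**Figure D4:**
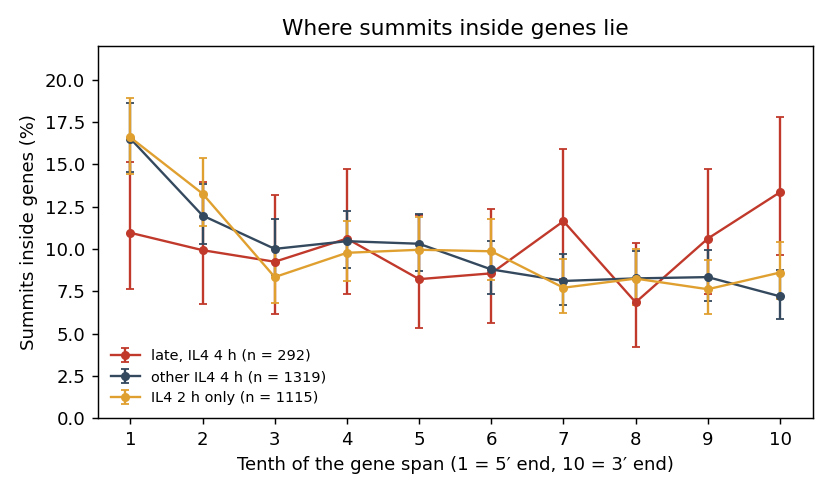
Share of summits inside genes (vertical axis, %) in 10 equal parts of the gene span from 5′ to 3′ end (horizontal axis), with exact 95% intervals, for late peaks, other IL4 4 h peaks and peaks listed only at 2 h. The last of the 10 parts holds 13.4% of late summits, against 7.20% and 8.61% of the other sets.

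With IFNg given beside IL4, late sites were rarely listed. The IFNg+IL4 lists took no part in the choice of members, but the rule still bears on the comparison. The other peaks had all been called in the IL4 2 h or untreated MYC list too, and late peaks in neither. Whether the gap between late and other peaks reflects IFNg or this selection for repeated calling was not tested. At 4 h of IFNg+IL4, 31 late peaks (2.63%, 1.79 to 3.71%) overlapped a MYC peak, against 34.7% (33.7 to 35.7%) of the other IL4 4 h peaks and 30.8% of the whole list. At 2 h the count was 20 (1.70%, 1.04 to 2.61%), against 31.6% (30.6 to 32.6%) and 28%. Weighting the other peaks to the strength of the late ones lowered their shares to 12.6% at 4 h and 11.2% at 2 h, still above those of the late peaks. Peaks listed only at 2 h of IL4 were as rare, with 2.36% listed at 4 h and 1.85% at 2 h of IFNg+IL4. Either IFNg+IL4 list held 49 late peaks (4.16%), against 44.0% of the other peaks and 39.2% of the whole list. Both lists held 2 late peaks (0.170%), inside Wbp4 and Gpr146, against 22.3% of the other peaks and 19.6% of the whole list.

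The gap was widest among strong peaks. In the strongest 30% of the IL4 4 h list, none of the 38 late peaks was listed with IFNg+IL4 at either time, which allows a share of up to 9.25% by the exact interval and 7.89% by a limit of 3 counts. Of the 2855 other peaks in that range, 70.9% were listed at 4 h and 66.3% at 2 h. The IFNg+IL4 libraries were shallower, with relative depths of 0.329 at 2 h and 0.368 at 4 h. Scaled to the depth of the 4 h library, 309 late peaks would still pass its lowest −log10 p of 5.57, and 9 of them (2.91%, 1.34 to 5.46%) were listed. The same step left 5822 other peaks, of which 46.6% (45.3 to 47.9%) were listed. Only 9 of the 31 late peaks listed at 4 h passed this step, so it did not separate listed from unlisted late peaks.

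**Figure D5:**
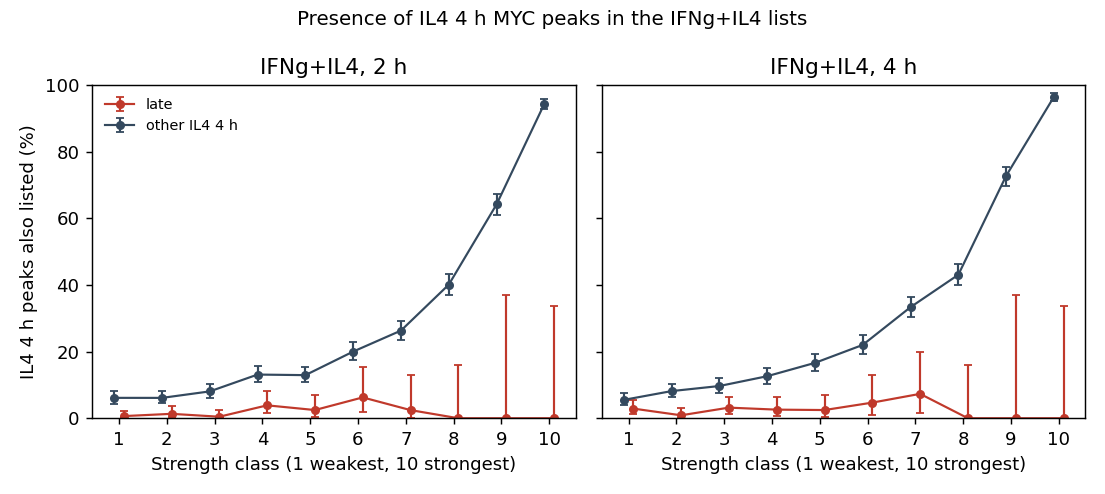
Share of IL4 4 h peaks that overlap an IFNg+IL4 peak (vertical axis, %) by strength class (horizontal axis) for late and other peaks, at 2 h (left) and 4 h (right), with exact 95% intervals. Other peaks climb to 96.4% at 4 h in the strongest class, while none of the late peaks in the 3 strongest classes is listed.

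The late sites that were listed with IFNg+IL4 at 4 h were of ordinary strength, with a median −log10 p of 9.51 (6.13 to 17.5). The strongest were in Vdac2, which encodes a mitochondrial outer membrane channel (chr14:21832309-21832474, 22 reads), and at the start of Fez2 (chr17:78418043-78418223, 24 reads). Then came a site 1.348 kb upstream of Gadd45b, a stress-response gene (chr10:80928651-80928807, 16 reads), and the promoter of Pltp, the phospholipid transfer protein (chr2:164857239-164857478, 17 reads). Dnajc4, a DnaJ-family gene, and Castor1, encoding an arginine sensor of the mTORC1 pathway, had promoter peaks of 18 and 16 reads. Rptor, which encodes the mTORC1 subunit Raptor, had an intragenic peak of 14 reads (chr11:119677243-119677388), as did Zfpm1, the transcriptional cofactor FOG1, with 16 reads. Max, which encodes the obligate partner of MYC, had 17 reads 4.367 kb past its start (chr12:76957811-76957944), and Ppp2r5c, a phosphatase subunit, had 16. STAT6 peaks of IL4 2 h overlapped 21 of these 31 sites (67.7%, 48.6 to 83.3%), against 36.0% (33.2 to 38.9%) of the 1129 late sites listed with IFNg+IL4 at neither time. Of the 20 late sites listed with IFNg+IL4 at 2 h, they overlapped 8 (40%, 19.1 to 63.9%). Promoters, where STAT6 overlap was lowest (below), held 8 of the 31 sites and 455 of the 1129.

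Overlap of late sites with the other factors was near that of the rest of the list for JUNB and CEBPB and lower for STAT6 and, by less, IRF1. A peak of STAT6, JUNB, CEBPB or IRF1 under any condition overlapped 594 late peaks (50.4%, 47.5 to 53.3%), against 56.6% (55.6 to 57.7%) of the other peaks, 52.9% at like strength and 55.9% of the whole list. STAT6 with IL4 at 2 h overlapped 435 (36.9%, 34.2 to 39.8%), against 44.4% (43.4 to 45.5%) and 41.5% at like strength (43.5% of the list). Either STAT6 list overlapped 40.2% of late and 48.3% of other peaks (47.3% of the whole list). JUNB, an AP-1 subunit, overlapped 16.2% of late and 14.7% of other peaks in any of its lists (14.9% of the whole list). CEBPB, a myeloid bZIP factor, overlapped 18.3% and 19.7% (19.5% of the whole list). IRF1, an IFNg-induced factor, overlapped 8.66% and 10.7% (10.4% of the whole list), and 8.64% at like strength. JUNB overlapped 163 late peaks untreated (13.8%, against 13.1% of the whole list), 95 with IFNg (8.06%, against 7.53%) and 99 with IFNg+IL4 (8.40%, against 7.37%). CEBPB overlapped 67 untreated (5.69%, against 6.47%), 213 with IFNg (18.1%, against 19.3%) and 101 with IFNg+IL4 (8.57%, against 8.81%). IRF1 overlapped 14 untreated (1.19%, against 1.36%), 34 with IFNg (2.89%, against 3.76%) and 100 with IFNg+IL4 (8.49%, 6.96 to 10.2%, against 10.3%). STAT6 with IFNg+IL4 overlapped 355 (30.1%, against 36.5%). Every late interval for JUNB and CEBPB held the whole-list share, and those for STAT6 did not. The intervals for IRF1 with IFNg+IL4 and for any IRF1 list (7.12 to 10.4%) ended just below the whole-list share, while the late share was near that at like strength.

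STAT6 overlap changed with position and with strength. STAT6 peaks of IL4 2 h overlapped 22.9% (19.2 to 27.0%) of late promoter peaks, 40.0% (35.4 to 44.8%) of those inside genes and 54.1% (47.5 to 60.7%) of those elsewhere. The last class includes peaks just outside genes whose start is not listed. Among the other peaks of the list the shares had the same order, at 33.7% (32.3 to 35%), 53.2% (51.1 to 55.3%) and 65.2% (62.5 to 67.9%). In the strongest 30% of the list, 2 of 38 late peaks (5.26%) overlapped STAT6, against 48.1% of the others. Among late peaks inside genes with a −log10 p of at least 15, STAT6 overlapped 6 of 54 (11.1%, 4.19 to 22.6%), against 55.4% (52.1 to 58.6%) of 921 other such peaks. The IRF1 list of IFNg+IL4 4 h showed the opposite order there, with 12 of 54 (22.2%, 12 to 35.6%) against 10.9% (8.92 to 13.0%). The IRF1 list of IFNg 4 h did not, with 0 of 54 (0 to 6.60%) against 3.91%. That of untreated cells also had 0 of 54, against 0.760%. The 54 late peaks lay in 31 genes, with 8 in Ctsb and 5 in Psap. The late intervals treat them as independent, and overlap was not counted per gene. Of the 10 strongest late peaks, 6 overlapped an IRF1 peak of that list, in Grn, Ctsb, Itm2b, Psap and Fcgr3, and none overlapped STAT6, JUNB or CEBPB. Why these gene-body peaks were also listed for IRF1 was not tested.

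Lysosome and autophagy genes were near late sites more often than genes in general. This list, like the others, was chosen with earlier results of these data known, so its share is a description only. A gene counted as near when a late summit lay within 20 kb of its span, which held for 1815 of 21887 protein-coding genes (8.29%). Of 44 lysosome and autophagy genes 13 were near a late site (29.5%), 10 had a late summit inside (22.7%, against 3.27% of all genes) and 5 had 2 or more (11.4%, against 0.196%). The 5 were Ctsb, Psap, Ctsd, Ctss and Gpnmb. Ctsd, Gpnmb, Sqstm1 (the autophagy receptor p62) and Ulk1 (the kinase that starts autophagy) had a late promoter peak, 4 of the 37 with an annotated start (10.8%, against 2.99% of all such genes). Sqstm1 reached 18 reads and Ulk1 15. Tfeb, the master regulator of lysosomal genes, had an intragenic peak of 14 reads at chr17:47767133-47767301, and Lamp1, Npc2 and Mitf had intragenic peaks of 10 or 11 reads. Ctsa, encoding cathepsin A, counted through the peak at its neighbour Pltp. These genes were not without MYC before: 41 of the 44 were near an IL4 2 h peak (51.1% of all genes) and all 13 were near an earlier one.

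Macrophage identity genes followed, with 6 of 25 near a late site (24%, against 8.29% of all protein-coding genes). Of the 25, 60% were near another IL4 4 h peak, against 42.2% of all genes. Lyz2, which encodes lysozyme, had a promoter peak of 36 reads at chr10:117282065-117282221 and a second summit of 24 reads near its 3′ end, and neither Lyz2 nor Fcgr3 had a 2 h or untreated peak within 20 kb. Runx1 and Spi1, encoding lineage transcription factors, had intragenic peaks of 13 and 17 reads. Cd14 and Adgre1 counted through peaks 8.463 and 19.987 kb away. Among metabolic growth enzymes 7 of 30 were near a late site (23.3%, against 8.29% of all genes). Promoter peaks of Mthfd1l, an enzyme of mitochondrial folate metabolism, Gapdh, and Slc3a2, a subunit of amino acid transporters, had 18, 15 and 16 reads. All 30 were also near another IL4 4 h peak (42.2% of all genes). Cad, Impdh2 and Pfkl counted through peaks at neighbouring genes, and Slc2a1, the glucose transporter, through a peak 2.788 kb outside its span.

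Inflammatory and AP-1 genes numbered 6 of 30 near a late site (20.0%, against 8.29% of all protein-coding genes). Of the 30, 60% were near another IL4 4 h peak, against 42.2% of all genes. Nfkbia, encoding the NF-kB inhibitor, and Fosl2, an AP-1 subunit, had promoter peaks of 13 and 12 reads, both overlapping STAT6 peaks. Mmp9, a matrix metalloprotease, had 12 reads inside the gene and no other IL4 4 h peak or 2 h peak within 20 kb. The nearest late peaks of Batf, Junb and Zfp36 lay between 3.949 and 16.758 kb away. Of the IL4 response list 5 of 30 were near a late site (16.7%), and 60% were near another IL4 4 h peak. Batf3, encoding an AP-1-like factor, had 3 late peaks, 1 at its promoter, beside 7 IL4 2 h peaks. Flt1, a VEGF receptor gene, had 2 inside with up to 16 reads (chr5:147669100-147669224), Il4ra 1 with 11, and Pdcd1lg2 1 with 11 reads 1.805 kb outside, and all 3 of these best peaks overlapped STAT6. Egr2 counted through a peak at Ado.

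Ribosome biogenesis genes were near late sites about as often as genes in general. Ribosome biogenesis had 2 of 30 genes near a late site (6.67%, against 8.29% of all protein-coding genes), and none with a late promoter peak. The 2 were Utp20 and Nop56, both through peaks at the promoters of their neighbours Arl1 and Idh3b. All 30 were near another IL4 4 h peak. Of the MYC and MAX network 2 of 15 were near (13.3%), Max as described above and Mxi1 through its neighbour Smndc1. The IFNg response list had 3 of 36 (8.33%), close to the background. They were Fas (14 reads, no other MYC peak of IL4 2 h or 4 h within 20 kb), B2m, encoding beta-2 microglobulin, with 2 intragenic summits of 28 and 20 reads, and Nlrc5, through a peak 4.842 kb away. Markers of other cell types of the culture had 2 of 25 near a late site (8.00%), Flt3 and Pecam1. Genes of other organs also had 2 of 25 (8.00%), Ckm and Amh.

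Most genes near a late site were also near an earlier MYC peak. Of the 1815 genes near a late site, 1501 were also near an IL4 2 h or untreated MYC peak and 314 were not. Of all 21887 protein-coding genes, 11194 (51.1%) were near an IL4 2 h peak and 1034 near an untreated one. The 314 included Fcgr3, Lyz2, Sec22a, Hddc2, Kifc3, Vim, which encodes vimentin, and Pdk3, a pyruvate dehydrogenase kinase gene. At the level of promoters, 523 genes had a late peak within 1 kb of a start, and 269 of them had no IL4 2 h or untreated peak there. The same share over all genes is not given here. A further 105 late peaks lay more than 20 kb from any protein-coding span.

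The 10 strongest late promoter peaks had −log10 p values between 17.1 and 43.4, and none was listed with IFNg+IL4. After Apoe and Lyz2 came Rgp1 (22 reads, at −0.128 kb from the start), Sec22a (24), Hddc2, a nucleotidase gene (19), and Cdk9, which encodes the kinase of the elongation factor P-TEFb (23). Plpp2, a lipid phosphatase gene, Fundc2, a mitochondrial protein gene, Nup155, encoding a nuclear pore subunit, and Fkbp2, an endoplasmic reticulum prolyl isomerase gene, had between 17 and 22 reads. The sites at Plpp2, Nup155 and Fkbp2 lay only 67, 97 and 173 bp from an earlier peak, whereas Sec22a and Hddc2 had none within 126730 and 509956 bp. STAT6 overlapped 1 of the 10, at Nup155, and JUNB overlapped 1, at Fundc2.

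Late promoters held E-boxes less often than promoters with the other IL4 4 h peaks. Of 263 windows with a late summit, 29 held CACGTG (11%, 7.51 to 15.5%), against 18.9% (17.6 to 20.4%) of 3042 windows with another IL4 4 h summit and 7.84% of all 21263 windows. CACGCG was in 44 (16.7%, 12.4 to 21.8%), against 30.7% (29.0 to 32.3%) and 12.1% of all. Windows with a summit listed only at 2 h held CACGTG in 10.1% and CACGCG in 20.9%. The windows differ in CpG content, with a median of 23 CpG in late ones and 26 in those with another summit. At the CpG content of the late windows, either motif was in 25.9% of late windows, 43.2% of windows with another IL4 4 h summit and 24.8% of windows with no IL4 4 h summit. In the sequences printed above, CACGTG began 10 bases before the start of Lats2 with the summit at +5, 15 bases before that of Fbxo10 with the summit 90 before, 110 before that of Fas with the summit 43 before, and 230 before that of Atoh8 with the summit 180 before. A match in a window is a description of its letters, and summits outside these windows were not searched.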

How the data were processed

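Each of the 17 libraries (16 ChIP, 1 input) came as a peak list called per sample. Bowtie2 2.2.6, MACS2 2.1.0.20150731 and mm10/GRCm38 are named in the submitters' processing notes, and the settings are not given here. The deposited columns hold a score, a fold enrichment (ratio to control), −log10 p and −log10 q, computed per peak by the authors' caller, and the summit offset. These values are not on 1 scale between lists of different depth. Pileups of different lists set side by side are unscaled.

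Whole-read pileup and background were recovered from the deposited fold and −log10 p (100% within 0.001), and relative depth from the steps of the background, which 46.6% of the IL4 4 h values met. Overlap and recovery were tested on simulated data. Genes came from RefSeq (GRCm38.p6): 21887 protein-coding spans, 17492 with a listed start, none on chromosome 18, where no peak can count as a promoter peak. Exons and introns were not used here.

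Members and gene lists were chosen with earlier results of these data known. Named genes are those nearest the 10 strongest late peaks, the 10 strongest at promoters and the 10 strongest listed with IFNg+IL4 at 4 h, the 5 with most late peaks within 20 kb (Psap, Ctsb, their neighbours Cdh23 and Fdft1, and Ctsd), and per gene list all with a late promoter peak plus up to 5 others by strength. Alternatives changed the overlap rule, the −log10 q limit, the windows and the members. Python 3.11.15 with SciPy 1.17.1 was used.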

Additional observations from a re-analysis of the deposited data

How the results depend on the processing

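Requiring a reciprocal overlap of 50% raised the number of late peaks to 2845, while the stricter limit on −log10 q (at least 5) left 713. The share listed with IFNg+IL4 was 9.68% at 4 h and 8.32% at 2 h when any peak within 1 kb counted (other peaks 40.3% and 37.1%). At 2 h it was 0.934% with the reciprocal overlap (other peaks 15.2%) and 3.65% among late peaks that pass at that library's depth, a setting chosen after seeing the data. The promoter share was 34.6%, 44.1% and 49.6% with windows of 500 bp, 2 kb and 5 kb (other peaks 49.7%, 59.0% and 63.1%), 43.4% with starts of all genes, 37.2% with the stricter q and 31.1% for late peaks with no earlier peak within 1 kb. Overlap with the 4 other factors was 64.3% within 1 kb (other peaks 68.5%), 28.4% with the reciprocal overlap (36.6%) and 55.7% for late peaks with no earlier peak within 1 kb. Where a value of the other peaks is given, the late share was below it. The 55.7% has an interval of 52.3 to 59.2%, which holds the 56.6% reported for the other peaks. Near a late site, as reported, were 1815 of all 21887 protein-coding genes. That number was 1102 with the stricter q, 1180 with a gene window of 5 kb and 2953 with a gene window of 50 kb. With the stricter q the genes near a late site numbered 8 for lysosome and autophagy, 4 for metabolic growth, 3 for inflammatory and AP-1, and 1 each for ribosome biogenesis, MYC and MAX, and other organs. A gene window of 5 kb gave 0 for ribosome biogenesis and 1 each for MYC and MAX and other organs. A window of 50 kb gave 5 for ribosome biogenesis, 8 for the IFNg response, and 4 each for other cell types and other organs. The other 27 settings of these results stayed within the interval or 1.5 times of the value reported. Read totals are not used here, so depth limits rest on the recovered pileups. No paired analysis was possible because the labels give no replicate numbers and each group is 1 library.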

Other observations

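Of the 36 late sites on chromosome X, 2 strong ones lay in Tmsb4x (34 and 18 reads), and the next strongest were at the promoters of Fundc2 (19 reads) and Pdk3 (15 reads) and inside Msn, which encodes the membrane-cytoskeleton linker moesin (14 reads). Hprt, encoding a purine salvage enzyme, and Tlr7, encoding an RNA sensor, held summits of 14 and 13 reads.

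Of the 20 late sites listed with IFNg+IL4 at 2 h, 8 lay at promoters. They were those of Nfe2l2, encoding the oxidative stress factor NRF2 (16 reads), Notch1 (16), Eif2ak2, encoding the double-stranded RNA sensor PKR (16), Pafah1b1 (15), Lats2 (14), Dnaja1, encoding a chaperone (12), Sccpdh (9) and Lpcat3 (9). Intragenic sites of this group lay in Zbtb7a, a transcriptional repressor gene (17), and Bcl3, encoding a nuclear partner of NF-kB (13). Their median −log10 p was 10.9. Among sites listed with IFNg+IL4 at 4 h, Spp1, encoding osteopontin, carried 11 reads at 87.7% of the gene's length, with the nearest earlier MYC peak 393277 bp away. Tapbp, encoding the MHC class I loading factor tapasin, carried 14 reads at its promoter.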
